A study of Mus musculus with 28 samples.

Results

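The Mir23a cluster (Mir23a, Mir27a and Mir24-2) and the cluster of Mir143 and Mir145 were followed among RNAs that came down with the kinase PKR in mouse embryonic fibroblasts (MEFs). The members were taken as the features whose Ensembl identifiers belong to these 2 clusters. All 5 were present among 30210 counted features, of which 1595 were miRNA features, and all 5 passed the filter on low counts in datasets A and B. Mir23a and Mir27a were chosen with the difference between the PKR forms under palmitate in dataset A known. Which values led to Mir143 and Mir145 is not stated, so that contrast was taken as the choosing one for all 5 members. For that contrast, and for every average or difference that holds it, values are therefore given as a description with no test.

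The cells carried PKR with a mutation in each double-stranded RNA-binding motif (RM) or wild-type PKR (WT), and were given 0.1 mM palmitic acid, a saturated fatty acid (palmitate), or mock treatment. Datasets A and B each held 3 libraries in the groups RM palmitate, RM mock, WT palmitate and WT mock, called biological replicates by the labels, and dataset C held 1 library per group. PKR was put back into the MEFs, so both forms are reintroduced proteins, and with no input or control precipitate analysed here, how much of an RNA the cells hold, how well PKR binds it and what sticks by chance cannot be told apart. The series looked for RNAs that WT PKR holds more of once palmitate is given.

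miRNAs are cut from hairpins in longer transcripts, first by Drosha with Dgcr8 and then by Dicer1, and the mature strand guides an Argonaute protein to mRNAs that pair with its seed, bases 2 to 8. The hairpins of a cluster are read from 1 primary transcript, but their mature products can differ in amount because each is processed and kept separately. PKR is a kinase that binds and is activated by double-stranded RNA, so short hairpins are among the RNAs that could be recovered with it. miR-143 and miR-145 are known for control by serum response factor (Srf) and for abundance in smooth muscle and fibroblasts, and the miR-23a, miR-27a and miR-24 family is found in many cell types, with roles in growth, differentiation and metabolism.

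The hairpins of the Mir23a cluster are printed 5′ to 3′ because the reads were counted over the whole hairpin, with both mature arms in capitals. The sequences are from RefSeq on GRCm38.p6.
Mir23a hairpin: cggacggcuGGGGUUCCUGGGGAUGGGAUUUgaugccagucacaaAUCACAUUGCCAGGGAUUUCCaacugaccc
Mir27a hairpin: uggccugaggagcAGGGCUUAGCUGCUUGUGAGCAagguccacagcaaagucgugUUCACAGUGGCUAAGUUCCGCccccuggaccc
Mir24-2 hairpin: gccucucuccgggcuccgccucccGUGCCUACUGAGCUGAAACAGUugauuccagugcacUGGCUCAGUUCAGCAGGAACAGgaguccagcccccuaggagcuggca
The 3p strands of the cluster and of Mir27b, the counted relative of Mir27a, show which reads could be shared between genes. Here capitals mark the seed.
miR-23a-3p: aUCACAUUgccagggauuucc
miR-27a-3p: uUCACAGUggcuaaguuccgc
miR-27b-3p: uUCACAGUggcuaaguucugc
miR-24-3p: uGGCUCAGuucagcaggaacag
The seeds of miR-27a-3p and miR-27b-3p are the same, and over their 21 bases these strands differ by 1 substitution, C19U, counted from 1 at the 5′ end with the miR-27a base first. The seeds of miR-23a-3p and miR-27a-3p differ by U7G, and that of miR-24-3p is unlike both. RefSeq gives miR-24-3p with 1 sequence for 2 genes, so reads counted for Mir24-2 may belong to its copy, and the counts of Mir27a and Mir27b may share reads. The hairpin of Mir23b, the counted relative of Mir23a, holds a stretch nearly the same as miR-23a-3p. The counts of Mir23a and Mir23b may therefore share reads too.

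In the files, on mm9, Mir23a (ENSMUSG00000065611) lies on chromosome 8 at 86732417 to 86732491, Mir27a (ENSMUSG00000065444) at 86732571 to 86732657 and Mir24-2 (ENSMUSG00000065541) at 86732714 to 86732820, all on the plus strand. The cluster spans 404 bases, with 79 bases between the first pair and 56 between the second. No other feature of the files overlaps it, and the nearest, Zswim4, lies on the opposite strand. Mir143 (ENSMUSG00000065445) lies on the minus strand of chromosome 18 at 61808850 to 61808912 and Mir145 (ENSMUSG00000065592), named Mir145a in GENCODE, at 61807470 to 61807557, 1292 bases apart. Neither is overlapped, and the nearest other feature is a long intergenic RNA without a gene name, ENSMUSG00000084888, on the same strand with 1715 bases between them. Each of the 5 members is a miRNA gene.

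Total counts were 254762 to 8036622 in dataset A, where RM palmitate replicate 2 was the shallow library, 2204502 to 7122087 in dataset B and 7462653 to 11658726 in dataset C. Fibroblast markers fitted the label: all 15 of 15 had counts, and their summed level was 8897 to 12940.2 CPM in dataset A and 16139 to 24501.0 CPM in dataset B (CPM, counts scaled to library size with TMM factors within the dataset). Of 9 macrophage and lymphocyte markers, 5 had any count, with a summed level of 0 to 7.58 CPM, and the defining Adgre1, Tyrobp and Cd3e were among those at 0. Epithelial markers summed to at most 30.6 CPM and endothelial markers to at most 8.70 CPM. Between the genotypes in mock cells of dataset A, the fibroblast marker S100a4 was lower in RM (-0.81 ± 0.19 on the log2 scale, adjusted p = 0.016, edgeR) and the endothelial marker Tek differed by 0.82 ± 0.37 (adjusted p = 0.23, edgeR). Under palmitate in dataset A, Tek was called higher in RM (2.12 ± 0.44, adjusted p = 0.0089, edgeR), as it was in the average over treatments and datasets (1.15 ± 0.20, adjusted p = 0.00017, edgeR). Tek was near the floor, with group means of 0.66 to 4.39 CPM in dataset A and 2.11 to 5.21 CPM in dataset B. Of 7 endothelial markers, only Tek was tested in dataset A and in that average. In that average 3 of 14 fibroblast markers were higher (Col5a1, Fn1 and Pdgfrb), 3 were lower (S100a4, Thy1 and Vim) and the epithelial marker Krt19 was lower (-0.66 ± 0.23). The part of these markers in the members' values was not tested. In dataset A the 171 miRNAs with a Mir symbol that are not members lay at a median of -0.50 (log2, relative to their own mean) in WT mock replicate 1, against -0.04 and 0.09 in the other WT mock libraries. The calls of Mir23a, Mir27a and Mir143 in mock cells are lost without that library, and its part was not tested. In the palmitate libraries of dataset A the median of these 171 miRNAs was 0.01, -0.33 and 0.62 in RM replicates 1 to 3. It was -0.22, -0.06 and 0.42 in WT replicates 1 to 3, and the part of these shifts was not tested either. In dataset B 1 library stood apart in its miRNAs: the 168 miRNAs with a Mir symbol that are not members lay at a median of 2.14 (log2) above their own mean in WT mock replicate 1, against -0.18 and -0.74 in the other WT mock libraries. RM palmitate replicates 2 and 3 of dataset B also lay high, at 0.82 and 1.25, against -0.07 in replicate 1. The genotype, palmitate and interaction values of dataset B are followed by values without one or the other of these.

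Mir143, which gives the strand miR-143, was the highest member in every group. In dataset A it had 502, 469 and 679.6 CPM in RM palmitate, 416, 481 and 533 CPM in RM mock, 105, 161 and 265 CPM in WT palmitate, and 94.7, 191 and 225 CPM in WT mock. All 6 RM libraries lay above all 6 WT libraries, and the palmitate libraries among them are those of the contrast taken as the choosing one. Of all features, 15.1% lay in RM above WT in every mock library and 7.05% in every palmitate library. The share over both treatments together was not computed. The levels of Mir143 averaged 550.2 ± 113 CPM in RM palmitate, 477 ± 58.2 in RM mock, 177 ± 80.9 in WT palmitate and 170.2 ± 67.6 in WT mock (SD, n = 3 each). In this order RM palmitate and RM mock overlapped, as did the WT groups, and the step between RM mock and WT palmitate did not.

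Mir145 shares the primary transcript of Mir143. It had 12.8, 13.8 and 24.2 CPM in RM palmitate, 8.20, 9.99 and 10.2 CPM in RM mock, 9.33, 14.6 and 18.5 CPM in WT palmitate, and 7.46, 7.63 and 12.1 CPM in WT mock. All neighbouring groups in the order of their means overlapped, and RM libraries were found among WT libraries. Per length, the level of Mir143 was 7565 ± 924 CPM per kilobase in RM mock, and that of Mir145 was 108 ± 12.6 CPM per kilobase (SD, n = 3).

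Mir23a also lay above WT in all RM libraries of dataset A, as 15.1% of all features did within mock and 7.05% within palmitate. It had 19.5, 34.5 and 34.0 CPM in RM palmitate, 12.5, 13.3 and 17.0 CPM in RM mock, 5.89, 6.75 and 9.60 CPM in WT palmitate, and 4.42, 5.78 and 7.16 CPM in WT mock. Only the WT groups overlapped. The level in RM palmitate replicate 2 rests on 10 counts.

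Mir27a, the middle hairpin of the cluster, was lower in level. It had 13.5, 6.90 and 13.3 CPM in RM palmitate, 4.10, 10.7 and 9.04 CPM in RM mock, 1.47, 2.39 and 5.15 CPM in WT palmitate, and 1.38, 2.08 and 2.18 CPM in WT mock. Under each treatment the RM libraries lay above the WT libraries, as 15.1% of all features did in mock and 7.05% under palmitate. RM mock and WT palmitate overlapped. Counts were 2 to 96 in RM and 5 to 15 in WT, so single levels are imprecise.

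Mir24-2, the last hairpin, did not follow the other members of its cluster. It had 20.9, 3.45 and 12.4 CPM in RM palmitate, 28.9, 17.5 and 8.75 CPM in RM mock, 25.9, 17.2 and 16.5 CPM in WT palmitate, and 6.90, 10.2 and 25.5 CPM in WT mock. All groups overlapped, and replicates of a group differed several-fold. The value of RM palmitate replicate 2 rests on 1 count.

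**Figure D1:**
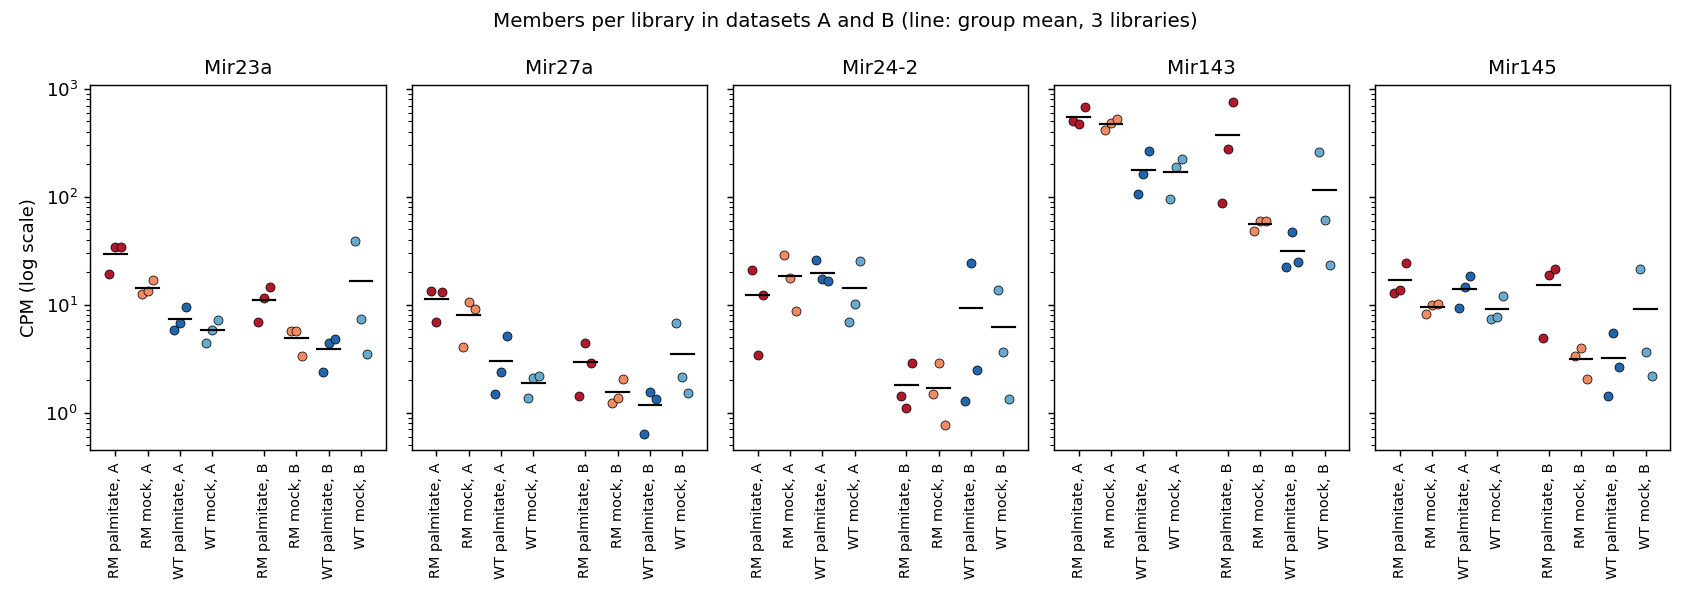
Levels of the 5 members in CPM (log scale) in each library of datasets A and B, with a line at the mean of the 3 libraries of a group; datasets were scaled separately. In dataset A the RM libraries of Mir23a, Mir27a and Mir143 sit above the WT libraries of the same treatment, as 15.1% of all features did in mock and 7.05% under palmitate. In dataset B WT mock replicate 1 is the highest WT library of Mir23a, Mir27a, Mir143 and Mir145.

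The comparison of RM with WT in mock-treated cells of dataset A asks whether the difference known from palmitate is also there without the fatty acid, in other libraries. Mir27a was higher in RM, by 2.07 ± 0.43 on the log2 scale (4.20-fold; edgeR's quasi-likelihood test, Benjamini-Hochberg adjusted p = 0.0088). Mir23a was higher by 1.31 ± 0.28 (2.48-fold, adjusted p = 0.0078, edgeR) and Mir143 by 1.49 ± 0.40 (2.80-fold, adjusted p = 0.041, edgeR). These 3 of 5 members compare with 81 of 11328 features called higher, 0.715%, and with 10 of 214 miRNA features. Whether mock values took part in the choice of Mir143 and Mir145 is not known, so this share cannot be read as free of the choice. In either direction 3.74% of all features were called. Mir24-2 differed by 0.40 ± 0.54 (adjusted p = 0.74, edgeR) and Mir145 by 0.08 ± 0.30 (adjusted p = 0.92, edgeR).

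The 3 called members lay in RM above WT in every mock library of dataset A, as 15.1% of all features did. The median log2 change of the 214 miRNA features was 0.03 and that of all features -0.01, and of the 176 miRNA features with a Mir symbol 9 were higher and 1 lower, with a median of 0.12. Leaving out 1 mock library at a time kept the log2 change of Mir23a at 1.17 to 1.48, that of Mir27a at 1.78 to 2.39 and that of Mir143 at 1.23 to 1.75. The call of Mir23a was lost without WT replicate 1 (1.18 ± 0.31, adjusted p = 0.053, edgeR). That of Mir27a was lost without WT replicate 1 (1.93 ± 0.50, adjusted p = 0.054, edgeR) and without RM replicate 2 (1.78 ± 0.46, adjusted p = 0.051, edgeR). The call of Mir143 held only without WT replicate 3 (adjusted p = 0.0497, edgeR): without RM replicate 1, 2 or 3 the adjusted p was 0.068, 0.14 or 0.11, and without WT replicate 1 or 2 it was 0.20 or 0.13.

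Under palmitate in dataset A, the contrast taken as the choosing one, the log2 change of RM over WT was 2.28 ± 0.39 for Mir27a, 1.94 ± 0.27 for Mir23a, 1.64 ± 0.40 for Mir143, 0.40 ± 0.28 for Mir145 and -0.36 ± 0.55 for Mir24-2. With 1 palmitate library left out these were 1.90 to 2.77, 1.57 to 2.24, 1.4 to 2.04, -0.10 to 0.71 and -0.83 to -0.07 in the same order. The value of Mir145 below 0 is the one without RM replicate 3. Of all features, 7.05% lay in RM above WT in every library, as Mir23a, Mir27a and Mir143 did, and 3.43% were called in either direction; nothing is read from either share for the members.

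**Figure D2:**
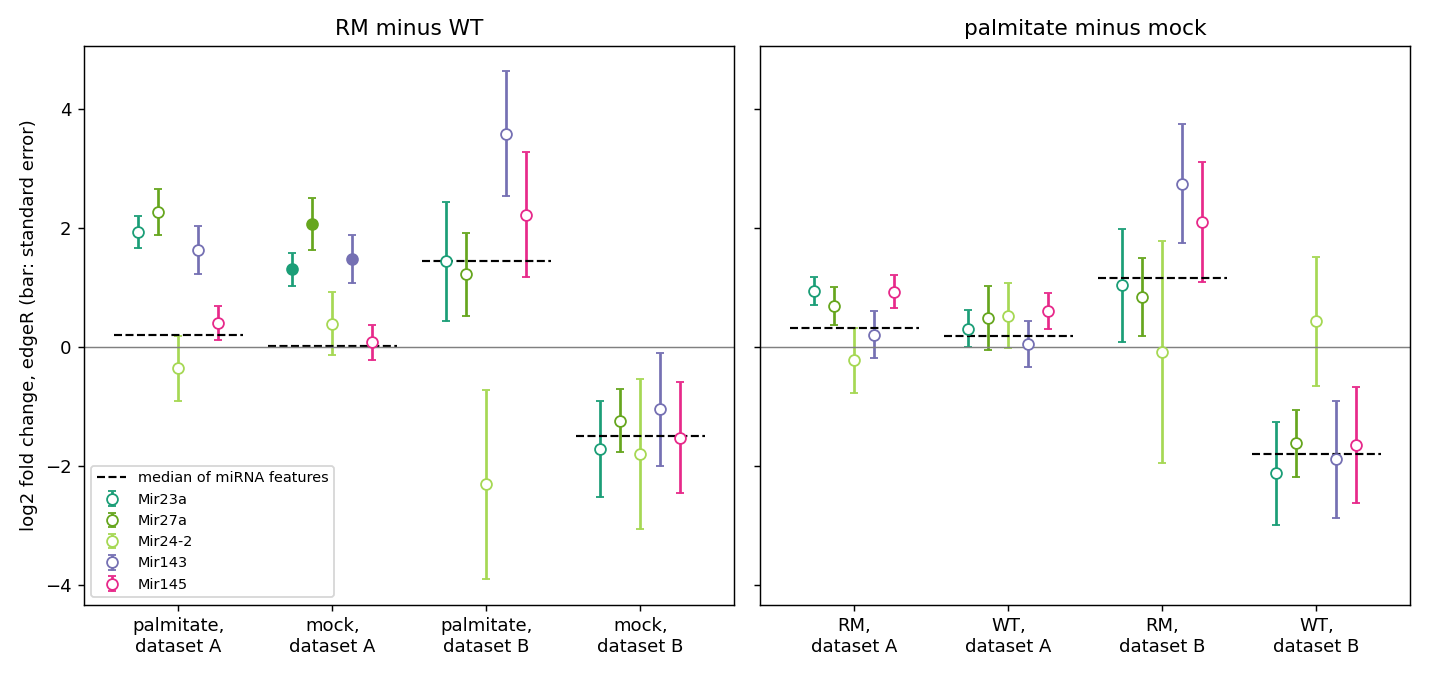
Log2 fold changes of the 5 members with their standard errors (edgeR), RM minus WT on the left and palmitate minus mock on the right; filled circles passed the adjusted threshold of 0.05 and empty circles did not, except that the contrast known when the members were chosen (palmitate, dataset A) is drawn empty because it was not tested, and dashed lines are medians of the miRNA features. Only Mir23a, Mir27a and Mir143 in mock-treated cells of dataset A are filled, and in dataset B most members lie near the dashed line.

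In dataset B the levels of the members turned on single libraries. Mir143 had 88.3, 278 and 765 CPM in RM palmitate, 48.3, 59.7 and 59.6 CPM in RM mock, 22.4, 47.1 and 24.9 CPM in WT palmitate, and 259.6 CPM in WT mock replicate 1 against 61.05 and 23.2 CPM in the other WT mock libraries. RM palmitate lay above WT palmitate in every library, and the mock groups overlapped. Mir23a had 6.88, 11.6 and 14.6 CPM in RM palmitate, 5.70, 5.73 and 3.32 CPM in RM mock, 2.40, 4.43 and 4.85 CPM in WT palmitate, and 38.7, 7.31 and 3.51 CPM in WT mock. Its highest library was WT mock replicate 1.

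Mir145 was also highest in RM palmitate replicates 2 and 3 and WT mock replicate 1 of dataset B, with 4.88, 18.8 and 21.6 CPM in RM palmitate, 3.34, 3.96 and 2.05 CPM in RM mock, 1.44, 5.47 and 2.67 CPM in WT palmitate, and 21.6, 3.65 and 2.17 CPM in WT mock. Mir27a had 1.43, 4.43 and 2.91 CPM in RM palmitate, 1.24, 1.36 and 2.05 CPM in RM mock, 0.640, 1.56 and 1.34 CPM in WT palmitate, and 6.75, 2.13 and 1.5 CPM in WT mock, on 4 to 49 counts. Both overlapped between RM and WT. Mir24-2 had 1.43, 1.11 and 2.91 CPM in RM palmitate, 1.49, 2.86 and 0.767 CPM in RM mock, 1.28, 24.5 and 2.51 CPM in WT palmitate, and 13.8, 3.65 and 1.34 CPM in WT mock. Its highest library, WT palmitate replicate 2, was not high for the other members.

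Between RM and WT mock cells of dataset B the log2 changes of all 5 members were below 0, at -1.71 ± 0.81 for Mir23a, -1.24 ± 0.53 for Mir27a, -1.8 ± 1.26 for Mir24-2, -1.04 ± 0.95 for Mir143 and -1.52 ± 0.93 for Mir145. None was called (edgeR, adjusted p = 0.13 to 0.51), where 14.1% of 12466 features were. The 206 miRNA features had a median of -1.5 and all features -0.02. All 5 members overlapped between the genotypes, whereas 18.6% of features lay wholly above in RM and 18.2% wholly below. Without WT mock replicate 1 the log2 changes were -0.09 for Mir23a, -0.29 for Mir27a, -0.46 for Mir24-2, 0.41 for Mir143 and 0.15 for Mir145. Leaving out WT mock replicate 3 instead gave Mir27a -1.56 ± 0.50 (adjusted p = 0.049, edgeR).

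Under palmitate in dataset B, Mir143 had the largest change of the members, 3.59 ± 1.05 (adjusted p = 0.076, edgeR), which DESeq2 called (3.59, adjusted p = 0.0022). Mir145 changed by 2.23 ± 1.05 (adjusted p = 0.23, edgeR), Mir23a by 1.45 ± 1.0 (0.42), Mir27a by 1.22 ± 0.69 (0.29) and Mir24-2 by -2.31 ± 1.59 (0.42). No member passed edgeR's threshold, against 7.81% of all features. Mir23a and Mir143 did not overlap between RM and WT, as 14.7% of features lay above in RM. The miRNA features had a median of 1.46. Without RM palmitate replicates 2 and 3 the log2 changes were 1.51 for Mir143, 0.71 for Mir145, 0.84 for Mir23a and 0.33 for Mir27a, and with RM palmitate replicate 1 left out the change of Mir143 was 4.06 ± 0.99 (adjusted p = 0.028, edgeR). Without WT palmitate replicate 2 the change of Mir24-2 was -0.13. In both genotype comparisons of dataset B the changes of the members other than Mir24-2 had the sign of the miRNA median, while Mir24-2 had it in mock and the opposite sign under palmitate. The part of the miRNA class in the members' values was not tested.

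**Figure D3:**
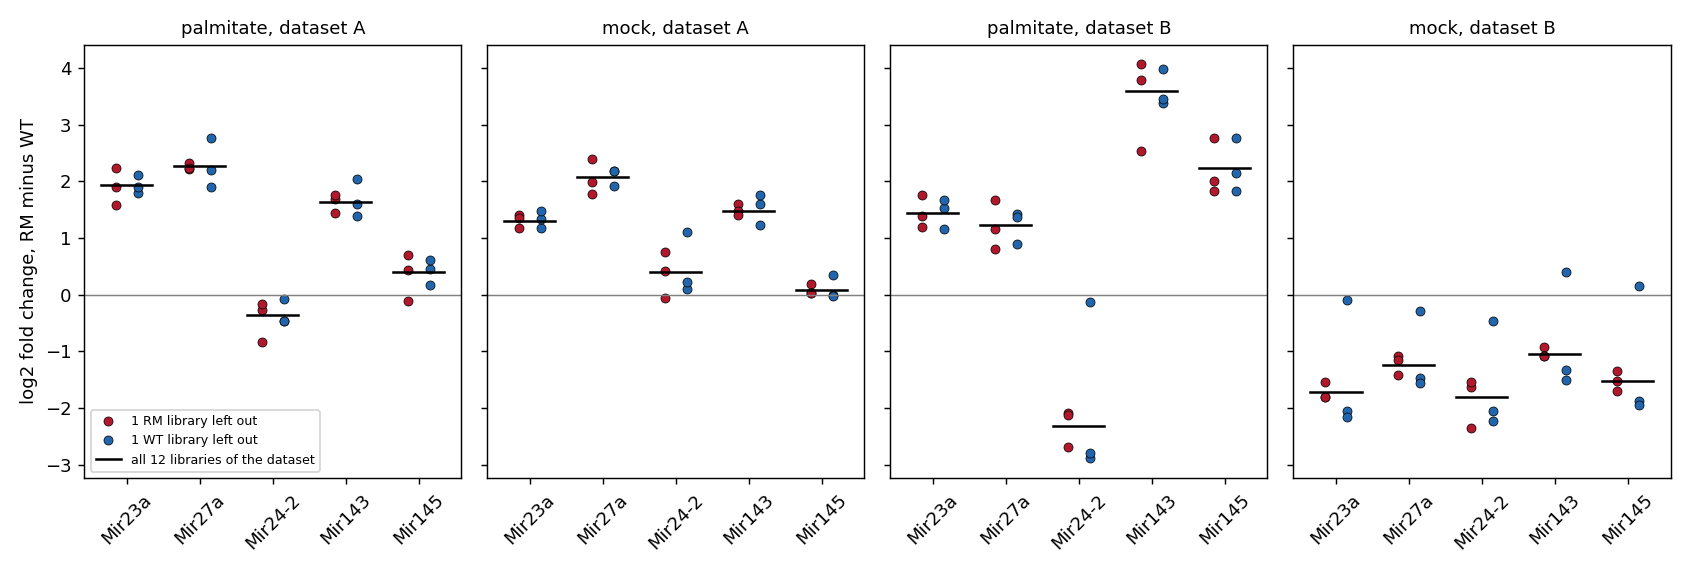
RM minus WT on the log2 scale for each member, with all 12 libraries of a dataset (line) and with 1 RM or 1 WT library left out (points). In mock-treated cells of dataset A, Mir23a, Mir27a and Mir143 stay between 1.17 and 2.39, and in mock-treated cells of dataset B the point near or above 0 is the fit without WT replicate 1.

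The genotype difference of mock cells was set against itself between the datasets in a fit of all 24 libraries, a comparison added after the data were seen. It differed for Mir27a by -3.36 ± 0.75 (dataset B minus dataset A, adjusted p = 0.017, edgeR), against 2.52% of 12683 features called. Without WT mock replicate 1 of dataset B this was -2.43 (adjusted p = 0.072, edgeR). Mir23a differed by -3.05 ± 0.89 (adjusted p = 0.079, edgeR), Mir143 by -2.55 ± 1.03 (0.20), Mir24-2 by -2.23 ± 1.34 (0.41) and Mir145 by -1.63 ± 0.97 (0.41). The median of the 242 miRNA features in this comparison was -1.52. Averaged over treatments and datasets, which takes in the choosing contrast, RM over WT was 1.42 ± 0.37 for Mir143, 1.08 ± 0.30 for Mir27a, 0.75 ± 0.34 for Mir23a, 0.30 ± 0.36 for Mir145 and -0.99 ± 0.54 for Mir24-2.

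With all libraries and edgeR's filter, the comparison of palmitate with mock called no member in either genotype or dataset. In RM cells of dataset A the log2 changes were 0.94 ± 0.24 for Mir23a (adjusted p = 0.085, edgeR), 0.93 ± 0.28 for Mir145 (0.15), 0.70 ± 0.32 for Mir27a (0.35), 0.21 ± 0.39 for Mir143 (0.85) and -0.22 ± 0.54 for Mir24-2 (0.90), and 0.477% of features were called. Without RM palmitate replicate 1 Mir23a passed (1.25, adjusted p = 0.040, edgeR), and with no filter on low counts Mir23a (adjusted p = 0.0030, edgeR) and Mir145 (adjusted p = 0.0060, edgeR) did. Without RM palmitate replicate 3 Mir23a fell to 0.62 (adjusted p = 0.44, edgeR) and Mir145 to 0.47 (adjusted p = 0.64, edgeR). In WT cells of dataset A the members ranged from 0.06 ± 0.39 for Mir143 to 0.61 ± 0.30 for Mir145, and 0.335% of features were called. These comparisons share their palmitate libraries with the contrast taken as the choosing one.

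In dataset B, RM cells had 2.75 ± 1.0 for Mir143 (adjusted p = 0.12, edgeR), 2.11 ± 1.01 for Mir145, 1.04 ± 0.95 for Mir23a, 0.85 ± 0.65 for Mir27a and -0.07 ± 1.86 for Mir24-2, and 7.53% of features were called. DESeq2 called Mir143 there (2.76, adjusted p = 0.028). Without RM palmitate replicates 2 and 3 the changes in RM were 0.67 for Mir143, 0.59 for Mir145, 0.44 for Mir23a and -0.04 for Mir27a. In WT cells Mir23a had -2.12 ± 0.86, Mir143 -1.89 ± 0.99, Mir145 -1.64 ± 0.97, Mir27a -1.62 ± 0.57 (adjusted p = 0.064, edgeR) and Mir24-2 0.43 ± 1.09, and 15.5% of features were called. The miRNA medians were 1.16 in RM and -1.79 in WT. Without WT mock replicate 1 the changes in WT were -0.50 for Mir23a, -0.67 for Mir27a, -0.44 for Mir143, 0.03 for Mir145 and 1.76 for Mir24-2. Without WT mock replicate 3 instead, Mir23a (adjusted p = 0.039, edgeR) and Mir27a (adjusted p = 0.022, edgeR) were called lower under palmitate in WT. DESeq2 also called Mir23a (adjusted p = 0.015).

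The interaction asks whether palmitate acted differently in RM and WT. In dataset B it was 4.63 ± 1.4 for Mir143 (adjusted p = 0.17, edgeR), 3.75 ± 1.4 for Mir145, 3.16 ± 1.29 for Mir23a, 2.46 ± 0.88 for Mir27a and -0.51 ± 2.17 for Mir24-2, beside a miRNA median of 2.94. Without WT mock replicate 1 it was 3.18 for Mir143, 2.07 for Mir145, 1.53 for Mir23a and 1.51 for Mir27a, and without RM palmitate replicates 2 and 3 it was 2.56 for Mir143. edgeR called 0 of 12466 features (0.0%), while 2011 had a p under 0.05 before adjustment. DESeq2 called 345, with Mir143 (adjusted p = 0.020) and Mir23a (adjusted p = 0.027) among them. In dataset A the interaction, described only, was 0.63 ± 0.39 for Mir23a, 0.21 ± 0.65 for Mir27a, 0.16 ± 0.55 for Mir143, 0.32 ± 0.41 for Mir145 and -0.76 ± 0.77 for Mir24-2.

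Members of 1 cluster were also set against each other within each library, which needs no scaling. The ratio of Mir143 to Mir145 counts was 28.1 to 39.4 in RM palmitate, 48.1 to 52.1 in RM mock, 11.1 to 14.3 in WT palmitate and 12.7 to 25.03 in WT mock libraries of dataset A. The RM and WT libraries did not overlap, but the palmitate libraries are those of the contrast taken as the choosing one. For this ratio and the next, no share over other pairs of features was computed. Mir145 differed by only 0.08 ± 0.30 (log2) in mock, so the ratio there largely repeats the difference of Mir143. In mock cells the log2 ratio averaged 5.64 ± 0.06 in RM and 4.15 ± 0.49 in WT (SD, n = 3 each), a difference of 1.49 with an exact two-sided permutation p of 0.1, the smallest that 3 against 3 libraries can give (0.3 adjusted over 6 such tests). In dataset B the ratio was 14.7 to 35.5 in RM palmitate, 14.4 to 29.1 in RM mock, 8.62 to 15.6 in WT palmitate and 10.7 to 16.7 in WT mock, and the groups overlapped (exact permutation p = 0.2 under palmitate and 0.3 in mock, 0.4 adjusted).

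For Mir23a over Mir24-2 the ratio of counts was 0.933 to 10 in RM palmitate, 0.432 to 1.95 in RM mock, 0.228 to 0.583 in WT palmitate and 0.280 to 0.640 in WT mock libraries of dataset A. The mock groups overlapped (exact permutation p = 0.4, two-sided). In dataset B it was 4.8 to 10.5 in RM palmitate, 2.0 to 4.33 in RM mock, 0.181 to 1.93 in WT palmitate and 2.0 to 2.81 in WT mock. Under palmitate the libraries did not overlap (exact permutation p = 0.1, 0.3 adjusted), on 2 to 5 counts of Mir24-2 in RM. Mir23a and Mir27a kept closer to each other, with 1.24 to 5.0 counts of Mir23a per count of Mir27a in RM and 1.87 to 4.0 in WT libraries of dataset A.

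**Figure D4:**
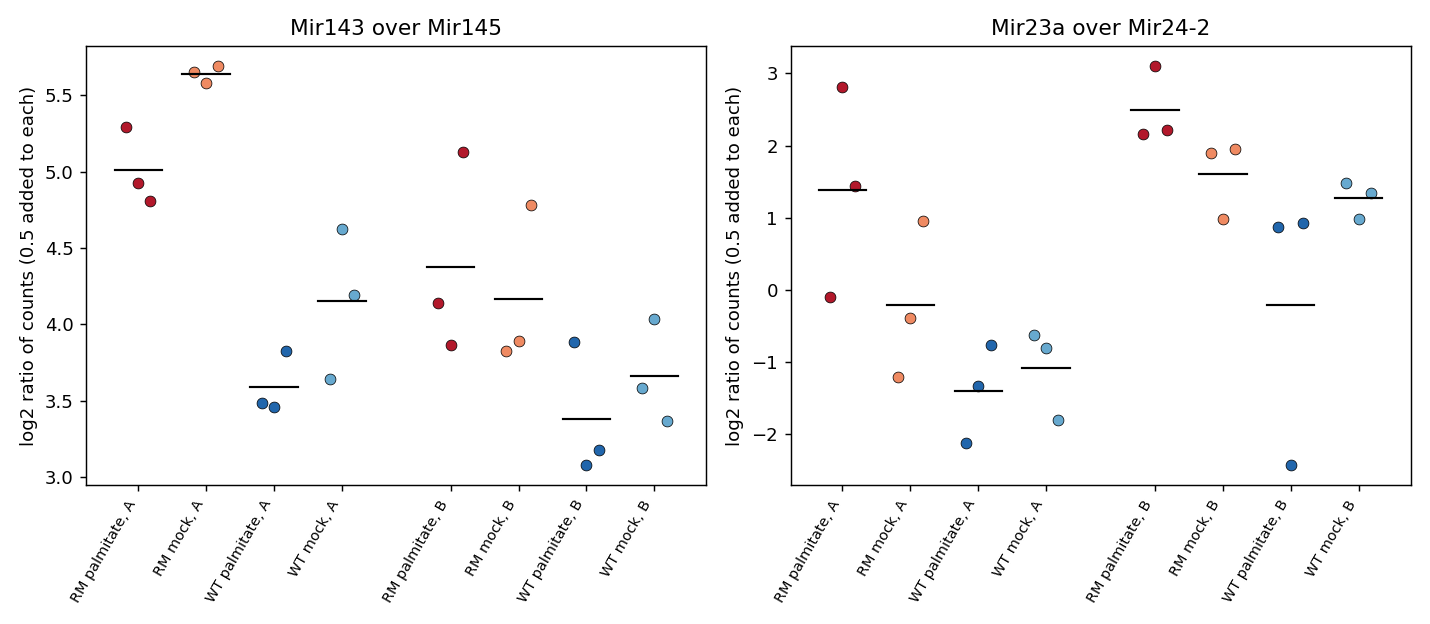
Log2 ratio of counts within each library for Mir143 over Mir145 and for Mir23a over Mir24-2, with 0.5 added to each count and a line at the group mean. In dataset A the RM libraries, with ratios of Mir143 to Mir145 from 28.1 to 52.1, sit above the WT libraries, and Mir23a over Mir24-2 spreads widely within groups. No share over other pairs of features was computed.

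Over the 24 libraries of datasets A and B, with each dataset's mean subtracted, the log2 levels of Mir23a and Mir27a had a Pearson r of 0.86, Mir143 and Mir145 one of 0.82, and Mir23a and Mir143, of different clusters, one of 0.83. Mir24-2 had 0.15 with Mir23a and 0.11 with Mir27a. With Mir23b and Mir27b, hairpins of the paralogous cluster, Mir23a had 0.89 and 0.84, Mir27a 0.83 and 0.92, and Mir143 0.85 and 0.84. Mir145 had 0.82 and 0.68 with them, and Mir24-2 had 0.09 and 0.14. Within dataset A, Mir143 and Mir145 had an r of 0.44 (12 libraries), and within dataset B one of 0.93. These values share the libraries and their scaling, and are a description. Among 12678 other features, those most like the summed Mir23a cluster were Mir152 (r = 0.82), Mir379 (0.80), Mirlet7a-2 (0.79), Mir134 (0.79) and Mir341 (0.78). Those most like the summed counts of Mir143 and Mir145 were Mir92-2 (0.95), Mir93 (0.94), Mir192 (0.93), Mir17hg (0.92), which holds the miR-17 to miR-92 hairpins, and Mir92-1 (0.92), 1 of those hairpins. All but the host transcript are miRNAs, and the median r over all features was -0.04 for each cluster.

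The paralogous cluster was counted through Mir23b and Mir27b. In mock cells of dataset A, Mir27b had 104, 206 and 210.4 CPM in RM, against 35.6, 59.0 and 67.8 CPM in WT. RM lay above WT in every library, as 15.1% of all features did, with a log2 change of 1.68 ± 0.52 (adjusted p = 0.095, edgeR). Mir27a had 0.039 to 0.052 counts per count of Mir27b in RM and 0.032 to 0.039 in WT. Mir23b had 14.9, 18.4 and 19.4 CPM in RM, against 9.11, 13.2 and 13.1 CPM in WT, a log2 change of 0.57 ± 0.26 (adjusted p = 0.25, edgeR). In mock cells of dataset B the changes were -1.60 ± 0.69 for Mir27b and -1.13 ± 0.78 for Mir23b, and under palmitate 1.85 ± 0.72 and 1.61 ± 0.96, none called (edgeR, adjusted p = 0.15 to 0.38). Without WT mock replicate 1 the mock changes were -0.31 for Mir27b and 0.53 for Mir23b, and without RM palmitate replicates 2 and 3 those under palmitate were 1.09 and 0.81.

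The long RNA ENSMUSG00000084888, chosen by its position next to Mir143, had 7.90, 6.23 and 5.78 CPM in RM mock, against 2.49, 3.01 and 5.29 CPM in WT mock of dataset A. RM lay above WT in every library, as 15.1% of all features did, by 0.91 ± 0.30 on the log2 scale (adjusted p = 0.10, edgeR). In dataset B it had 1.86, 2.05 and 2.30 CPM in RM mock, against 0.138, 0 and 1.34 CPM in WT mock, on 9 to 15 and 0 to 8 counts. It was called higher in RM there (2.09 ± 0.67, adjusted p = 0.046, edgeR), where Mir143 was not and 14.1% of all features were called. Under palmitate in dataset B it differed between RM and WT by 0.52 ± 0.57 (adjusted p = 0.63, edgeR). In WT cells of dataset B it was called higher under palmitate than in mock (2.44 ± 0.66, adjusted p = 0.020, edgeR), as 15.5% of features were called in either direction. WT mock replicate 1, the highest WT library for Mir143, had 1 count of it.

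In mock cells of dataset A, 0 of 16 miRNA processing and effector genes passed (edgeR), with log2 changes of 0.62 ± 0.18 for Tnrc6a, a partner of Argonaute proteins (adjusted p = 0.065), and 0.75 ± 0.22 for Ago3 (adjusted p = 0.062). In mock cells of dataset B, 4 of 15 were higher in RM, where 982 of 12466 features were called higher and 778 lower: Tnrc6c (0.48 ± 0.11), Tnrc6a (0.37 ± 0.10), Dgcr8 (0.42 ± 0.13) and Dicer1 (0.38 ± 0.12). Averaged over treatments and datasets, 5 of 16 were higher and 2 lower, against 25.5% of all features called. Tnrc6a at 0.40 ± 0.07 and Ago3 at 0.31 ± 0.09 were higher, and Ago4 at -1.14 ± 0.35 was lower. Ago4 was near the floor, with group means of 0.93 to 2.10 CPM in dataset A and 0.10 to 1.34 CPM in dataset B. Of 27 other fibroblast miRNAs, none passed in mock cells of dataset A (edgeR, median 0.11). In the average, 2 of 29 were higher, Mir10b (1.48 ± 0.35) and Mir10a (0.96 ± 0.33), and none lower.

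Genes reported as targets of the clusters showed both directions. Averaged over treatments and datasets, 4 of 17 were higher in RM and 4 lower, where 25.5% of all features were called (1664 higher and 1574 lower of 12683), with a median of -0.08 against 0.01 for all features. Add3, an adducin of the membrane skeleton, was lower by 0.65 on the log2 scale (-0.65 ± 0.08, adjusted p = 6.6e-07, edgeR), and Hk2, a hexokinase, was higher (0.41 ± 0.10, adjusted p = 0.0042, edgeR). In mock cells of dataset A, 1 of 17 passed, Bcl2l11, a cell death gene, at 0.72 ± 0.20 (adjusted p = 0.047, edgeR). Of 14 Srf and smooth muscle genes, Srf was higher in the average (0.46 ± 0.15, adjusted p = 0.022, edgeR) and Myl9, a myosin light chain, lower (-0.49 ± 0.13, adjusted p = 0.0073, edgeR), and none of 12 passed in mock cells of dataset A. In dataset B palmitate raised Srf over mock in RM (1.29 ± 0.21, adjusted p = 0.0044, edgeR) and in WT (1.28 ± 0.20, adjusted p = 0.00085, edgeR). There 2 of 14 in RM and 6 of 14 in WT were higher and 0 lower, where 7.53% and 15.5% of all features were called. In dataset A palmitate against mock called 0 of 12 in either genotype. Of 5 tested neighbours of the clusters, Ppargc1b (2.01 ± 0.47) and Csnk1a1 (0.22 ± 0.08) were higher in the average. Ppargc1b was near the floor, with group means of 0 to 0.51 CPM in dataset A and 0.24 to 2.85 CPM in dataset B.

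In dataset C, with 1 library per group, no difference has a replicate check, and intervals (exact 95% Poisson for levels, exact binomial for ratios) cover counting error only. Mir143 had 3403 counts in RM palmitate, 1019 in RM mock, 554 in WT palmitate and 434 in WT mock, or 292, 101, 71.6 and 58.2 CPM by library total. The intervals by library total did not overlap (282 to 302, 94.7 to 107, 65.7 to 77.8 and 52.8 to 63.9 CPM). Mir145 had 105, 20, 18 and 13 counts in the same order of groups. Mir23a had 134, 29, 13 and 12 counts, Mir27a 64, 18, 15 and 19, and Mir24-2 109, 16, 16 and 9. By library total RM palmitate stood apart for all 5 members, but the median feature was also 2.28 (log2) higher in RM than in WT under palmitate. Of all features, 20.3% had a lower RM over WT value than Mir27a and 70.2% a lower one than Mir23a, with the other members between. The other 3 groups had overlapping intervals for each member but Mir143.

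Palmitate over mock in the RM libraries of dataset C was 2.0 (95% interval 1.41 to 2.63) for Mir23a, 1.62 (0.85 to 2.47) for Mir27a, 2.56 (1.8 to 3.42) for Mir24-2, 1.53 (1.43 to 1.64) for Mir143 and 2.19 (1.49 to 2.96) for Mir145 on the log2 scale. The median was 1.38 over 173 miRNA features and 0.18 over 12302 features. In the WT libraries the members lay between -0.39 and 0.78, beside a median of 0.27 over all features. RM over WT cannot be read from library totals, since the median feature was 2.28 higher in RM under palmitate and 2.37 higher in mock. Under palmitate the members lay at 1.5 for Mir27a, 2.77 for Mir23a, 2.18 for Mir24-2, 2.03 for Mir143 and 1.95 for Mir145, on either side of that median. In mock the members lay below the median feature, from -0.52 for Mir27a to 0.84 for Mir23a, as did the miRNA features with a median of 0.84. The tables of dataset C count each strand, and all but 1 count of the members, 1 antisense count of Mir145, lay on the strand of the gene.

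**Figure D5:**
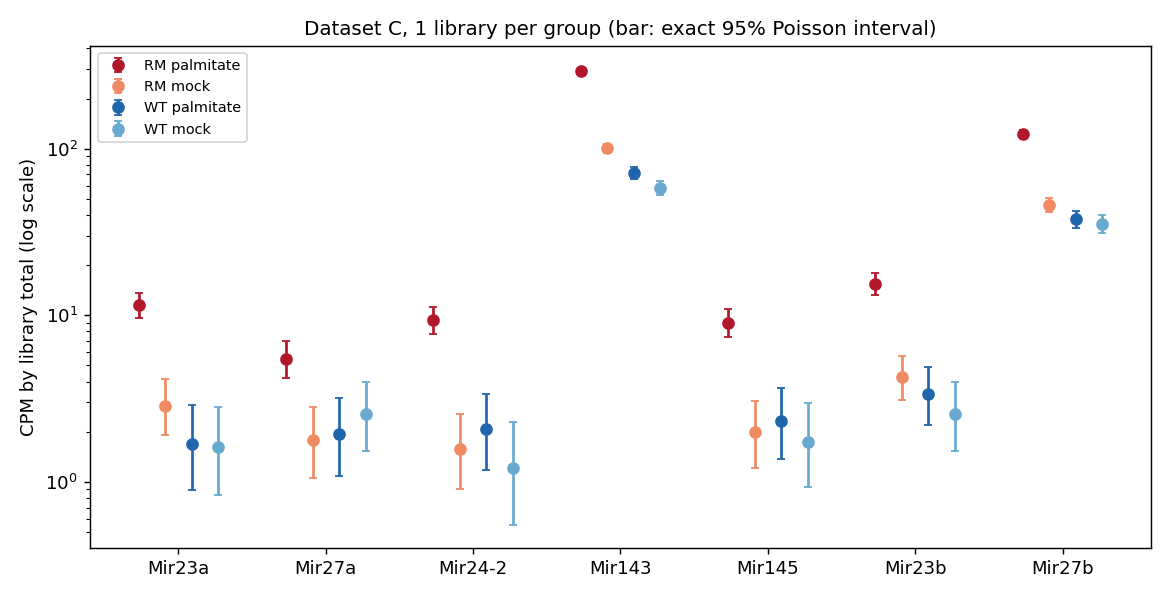
Levels of the 5 members and of Mir23b and Mir27b in dataset C, in CPM by library total (log scale), 1 library per group, with exact 95% Poisson intervals. RM palmitate is the highest library for each of them, with 292 CPM for Mir143. By library total the median feature was also 2.28 (log2) higher in RM than in WT under palmitate.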

How the data were processed

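RNA recovered with PKR was counted in 28 libraries. The deposited tables give whole-number counts per feature. Per the submitters' processing notes, CASAVA 1.7.0 and 1.8.2, Novoalign and mm9 were used. Which tool counted reads, whether it used strand and what 2hr means on columns of dataset B is not given in the sources used here. Columns marked t and c in dataset C were read as palmitate and mock. Of the columns of values per sample, 32 were used and 52 were not. Per the labels' protocols, precipitated RNA was taken up with Trizol and fragmented before a small RNA kit was used, which can change the yield of hairpins against long RNA. The p-values measure the spread between these libraries.

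The members and gene lists were chosen with earlier results of these data known. Members are all named. From each list up to 3 features with the smallest p in the average over treatments and datasets are named, and for each cluster the 5 features with the highest Pearson r. Further list features were named after their values were seen. Some list features are not reported here. GENCODE M21 gave names to 25755 of 29777 Ensembl identifiers. Counts were fitted with edgeR 4.0.16 (TMM scaling, filterByExpr, robust quasi-likelihood test, 1 mean per group, two-sided, R 4.3.3), each dataset alone and both together, with Benjamini-Hochberg adjustment over all features tested (threshold 0.05). SE is the log2 change divided by the square root of F. The fits were tested on simulated data. Alternatives were DESeq2 1.42.0, its size factors in edgeR, total-count scaling, no filter, a replicate block, each library left out, and RM palmitate 2 and 3 of dataset B left out. Dataset C was described, its strands summed, with medians over features without blank values averaging 10 counts or more, after adding 1 to each count.

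No clear pairing of the libraries by replicate number was seen, and the check used cannot exclude one (given with the alternatives). Poisson intervals of levels and exact binomial intervals of ratios in dataset C cover counting error only.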

Additional observations from a re-analysis of the deposited data

Results flagged for a closer look

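For Mir27a the log2 change of RM over WT in mock-treated cells was -1.24 ± 0.53 in dataset B and 2.07 ± 0.43 in dataset A. In a comparison added after the data were seen, the difference between them in the fit of 24 libraries was -3.36 ± 0.75 (adjusted p = 0.017, edgeR). The 242 miRNA features had a median of -1.52 there. Of the 12 mock libraries, leaving out WT replicate 1 of dataset B (-2.43), WT replicate 1 of dataset A (-3.19) or RM replicate 1 of dataset B (-3.21) took the adjusted p above 0.05. In WT mock replicate 1 of dataset B other miRNAs were high as well, and their part in this value was not tested.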

How the results depend on the processing

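The log2 changes of members were recomputed under 1020 alternatives over 65 results: 939 kept direction and side of the threshold, 19 lost a call, 21 gained one, 41 changed sign or moved without a call and 0 called values reversed.

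Of features called, RM against WT in mock cells of dataset A gave 424, with 240 under total counts, 723 with no filter and 200 to 308 with 1 library left out. Under palmitate it gave 388, with 840 and 201 to 759, and total counts turned the split of higher and lower from 106 and 282 to 387 and 134. Palmitate in RM of dataset A gave 54, with 12 under total counts, 349 with no filter, 34 by DESeq2 and 5 to 127 with 1 library left out. In WT it gave 38, with 6, 197 and 6 to 81. The interaction of dataset A gave 0 (edgeR; 469 before adjustment, 0 by DESeq2) and 88 with no filter. In dataset B, RM against WT gave 1760 in mock, with 978 under total counts and 736 to 1826 with 1 library left out. Under palmitate it gave 974 (523 higher, 451 lower), with 2109 (374 and 1735) and 112 to 2500, and 16 without RM palmitate 2 and 3. Palmitate in RM gave 939 (633 and 306), with 2431 (433 and 1998), 137 to 2671 and 37, and in WT 1938, with 1084 and 923 to 2154. The interaction gave 0, with 119 under total counts, 125 with no filter, 345 by DESeq2 and 0 to 903 with 1 library left out. The average gave 3238 (1664 and 1574), with 2060 (1352 and 708) under total counts, and dataset B minus dataset A 1000 (679 and 321), with 2641 (383 and 2258) and 564 without RM palmitate 2 and 3. The causes were not tested. Under total counts the median feature lay at 0.39 (log2) for RM against WT under palmitate in dataset A, -0.36 in dataset B, -0.38 for palmitate in RM of dataset B and -0.48 for dataset B minus dataset A.

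With a replicate block the interaction of dataset B gave 46. RM against WT in mock gave 448 in dataset A and 2032 in dataset B, and under palmitate 347 and 1250. Palmitate in RM gave 37 and 1256, and palmitate in WT of dataset A 31. Few same-numbered libraries deviated together: 4 of 18 pairs in dataset A and 5 of 18 in dataset B had r over 0.1. The highest r was 0.36 and 0.29, and 11 of 36 and 13 of 36 comparisons were closest to their own number. These values cannot exclude a pairing. Mir27a had 4 to 49 counts in dataset B, and single levels are imprecise.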
